A study of Mus musculus with 9 samples.

Results

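The genes described are 10 members of families best known from axon guidance, or related to them by name or domain, that have reads in cells of brain vessels: Efnb2, Ephb4, Efna1, Unc5b, Robo4, Sema3g, Sema6a, Sema7a, Plxnd1 and Plxdc2. They were chosen by name, 10 of the 46517 gene rows of the table, and each of the 10 had reads. RNA was measured with Smart-seq2, which copies whole transcripts of single sorted cells, in 1235 cells from microvascular fragments of adult mouse brain. The cells carried 9 labels, and the sources used here do not spell these out, nor do they give strain, sex, exact age, genotype or the number of animals. No treatment is named, and all labels share the same dissociation and sorting. The 4 endothelial labels were aEC (116 cells), vEC (45), CP-EC (17) and capilEC (787), the mural labels were aSMC (41), vSMC (29) and PC (54), and the others were FB (9) and MG (137).

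Guidance molecules come as ligands and receptors on or between cells. Ephrins are membrane-bound ligands of Eph receptor kinases, and in developing mouse vessels Efnb2 marks arteries while its receptor Ephb4 marks veins. Netrins, Slits and FLRT proteins signal through Unc5 and roundabout receptors, of which Unc5b is known from arteries and tip cells and Robo4 from endothelium at large. Semaphorins act through plexins, secreted class 3 members often with a neuropilin as co-receptor, and Plxnd1 is the endothelial plexin that binds Sema3e.

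Each label was deposited as 1 sample, so types have no replicates and no difference between them could be tested. Levels are reads summed over the cells of a type per 1000000 reads of that type (CPM), and intervals are exact Poisson or exact binomial 95% intervals. They cover counting error only, because amplified copies of a molecule cannot be told from separate molecules here. The cells came from 4 plates, named s169s, s480s, s482s and s483s in the cell names, and spread between plates with at least 5 cells of a type is the only check on repeatability. No cell had counts identical to another's (0 such cells), and depth was 100021 to 854836 reads per cell with a median of 202225. Among endothelial cells the labels fitted their markers. The arterial list summed to 4069 CPM in aEC, 360 CPM in vEC and 545 CPM in capilEC, and the venous list summed to 410 CPM in aEC, 7328 CPM in vEC and 1198 CPM in capilEC. The arterial list was not particular to aEC outside the endothelium, with 1921 CPM in aSMC, 2832 CPM in vSMC and 1812 CPM in PC. Smooth muscle genes summed to 13201 CPM in aSMC, 5709 CPM in vSMC and 366 CPM in PC. Fibroblast genes had 9782 CPM in FB, beside 1576 CPM of astrocyte genes. Plvap, Esm1 and Gpihbp1 together had 4274 CPM in CP-EC and 2.25 CPM in capilEC. Mural types were not free of endothelial transcripts: 13 endothelial genes, none of them at 0 in any mural type, summed to 1686 CPM in aSMC, 3900 CPM in vSMC and 4289 CPM in PC, which was 10.01%, 23.1% and 25.5% of the mean of aEC, vEC and capilEC.

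Compared per kilobase of exon in capilEC, the ephrin ligand Efna1 and the receptor Robo4 were the most abundant of the 10, at 179 and 134 CPM per kb. Sema7a followed at 34.4, Ephb4 at 22.8, Plxnd1 at 18.5, Sema6a at 17.9 and Unc5b at 11.5 CPM per kb. Efnb2 had 2.98, Sema3g 1.87 and Plxdc2 0.310 CPM per kb. Only Ephb4 shared exon sequence with another annotated gene, 33 bases with Zan on the opposite strand, which reached at most 5.23 CPM in any type.

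**Figure D1:**
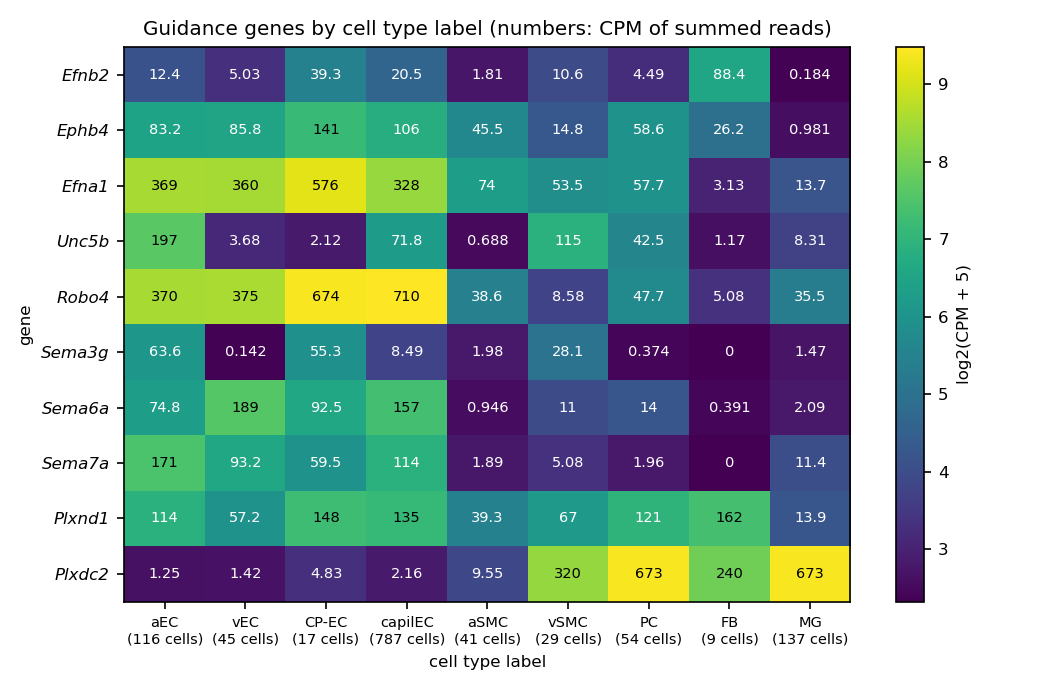
Levels of the 10 guidance genes (rows) in the 9 cell type labels (columns), as CPM of summed reads in each field, coloured by log2(CPM + 5). Unc5b and Sema3g are high in aEC and near 0 in vEC, and Plxdc2 has 673 CPM in PC and in MG but at most 4.83 CPM in the 4 endothelial types.

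Unc5b, a receptor for netrins and for FLRT proteins, had the largest log2(CPM + 5) difference between arteries and veins of the 10. It had 197 CPM in aEC (192 to 202), 3.68 CPM in vEC (2.75 to 4.83), 2.12 CPM in CP-EC and 71.8 CPM in capilEC (70.5 to 73.0). By plate, in the order s169s, s480s, s482s and s483s, it had 146, 294, 212 and 123 CPM in aEC and 0, 0.952, 12.1 and 0.382 CPM in vEC. The lowest aEC plate was above the highest vEC plate. The capilEC values of 12.4, 70.3, 116 and 80.0 CPM also lay below every aEC plate and above every vEC plate. The ratio of aEC to vEC was 53.5 (40.8 to 71.7), a log2(CPM + 5) difference of 4.54 in the sum and of 3.67 to 5.65 within plates. Of the 52 vEC reads 80.8% came from 1 cell, and the interval of the ratio does not cover such spread between cells. Against capilEC the difference was 1.397 for aEC, higher in 4 of 4 plates, and -3.14 for vEC, lower in 4 of 4 plates.

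The gradient lay in the share of cells as well as in the level. After every cell was thinned to 100000 reads, at least 5 reads of Unc5b were found in 29.3% of aEC cells (21.2 to 38.5%), in 2.22% of vEC cells (0.0562 to 11.8%) and in 10.8% of capilEC cells (8.72 to 13.2%). Of MG cells, which serve as the background for free RNA, 2.19% held as many; median depth was 235862.5 reads in aEC, 261300 in vEC, 192941 in capilEC and 232674 in MG. The median cell had 3.47 CPM in aEC and 0 CPM in vEC and capilEC, while the highest cell had 2067 CPM in aEC. The sums therefore rest on a minority of high cells: 8 cells held 50% of the aEC reads and 19 held 50% of the capilEC reads.

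Robo4, the endothelial roundabout receptor, which binds Unc5b, was present throughout the endothelium and highest outside arteries and veins. It had 370 CPM in aEC (363 to 376), 375 CPM in vEC (365 to 385), 674 CPM in CP-EC (646 to 703) and 710 CPM in capilEC (706 to 714). In plates s169s, s480s, s482s and s483s it had 117, 341, 527 and 255 CPM in aEC, 243, 428, 403 and 404 CPM in vEC, and 312, 939, 880 and 687 CPM in capilEC. The types overlapped across plates, but within each of the 4 plates capilEC was above both aEC and vEC. On the log2(CPM + 5) scale the difference from capilEC was -0.93 for aEC (-1.45 to -0.73 within plates) and -0.91 for vEC (-1.12 to -0.36). At least 1 thinned read was found in 79.9% of capilEC cells but also in 46.7% of MG cells. At least 5 reads were found in 43.1% of aEC, 48.9% of vEC and 53.1% of capilEC cells, against 5.84% of MG cells.

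Sema3g, a secreted class 3 semaphorin that binds neuropilins, was highest in arteries among the endothelial types. It had 63.6 CPM in aEC (60.8 to 66.4), 0.142 CPM in vEC (0.0172 to 0.512, from 2 reads) and 8.49 CPM in capilEC (8.06 to 8.94). The aEC plates had 107, 81.5, 58.8 and 50.4 CPM, the vEC plates 0, 0, 0.252 and 0.191 CPM and the capilEC plates 6.83, 0.502, 16.9 and 8.73 CPM, with no overlap between aEC and either of the other types. The ratio of aEC to vEC had a counting interval of 124 to 3707. At least 5 thinned reads were found in 19.8% of aEC cells (13.004 to 28.3%), against 1.52% of capilEC cells and 0 of 45 vEC cells, which allows a share of up to 7.87%. CP-EC had 55.3 CPM, all of it from a single cell (100% of reads), and the CP-EC minus capilEC difference was -1.67 without that cell's plate, s480s, against 2.16 with it.

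Sema6a, a transmembrane semaphorin whose known receptors are Plxna2 and Plxna4, ran the other way. Its level was 74.8 CPM in aEC (71.8 to 77.9), 189 CPM in vEC (182 to 196), 92.5 CPM in CP-EC and 157 CPM in capilEC (155 to 159). By plate it had 1.98, 152, 54.3 and 54.6 CPM in aEC, 92.7, 407, 75.8 and 238 CPM in vEC, and 107, 184, 163 and 168 CPM in capilEC. The aEC and vEC ranges overlapped, yet aEC was lower than vEC in each of the 4 plates, with a difference of -1.28 in the sum and of -3.81 to -0.45 within plates. Against capilEC, aEC was lower in 4 of 4 plates (-1.02) and vEC was higher in 2 of 4 (0.26). At least 5 thinned reads were found in 16.4% of aEC, 35.6% of vEC and 26.8% of capilEC cells, and in 0.730% of MG cells.

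Sema7a, a membrane-anchored semaphorin that binds Plxnc1 and beta-1 integrin, had 171 CPM in aEC (167 to 176), 93.2 CPM in vEC (88.3 to 98.4), 59.5 CPM in CP-EC and 114 CPM in capilEC (112 to 115). Plates overlapped widely: 49.5, 266, 98.5 and 202 CPM in aEC, 104, 37.1, 60.7 and 134 CPM in vEC, and 18.7, 177, 125 and 126 CPM in capilEC. aEC was above vEC in 3 of 4 plates, and above capilEC in 3 of 4, with differences in the sum of 0.84 and 0.57. Sema7a had 1.89 CPM in aSMC, 5.08 CPM in vSMC and 1.962 CPM in PC, and no read in FB, where 3 reads would be 1.17 CPM.

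Plxnd1, the endothelial semaphorin receptor, had 114 CPM in aEC (110 to 118), 57.2 CPM in vEC (53.3 to 61.3), 148 CPM in CP-EC and 135 CPM in capilEC (133 to 137). By plate it had 0, 143, 86.7 and 140 CPM in aEC, 14.2, 13.8, 34.8 and 115 CPM in vEC, and 46.4, 221, 78.9 and 184 CPM in capilEC. The ranges overlapped, and vEC was below capilEC in each of the 4 plates (-1.17 in the sum). aEC was above vEC in 3 of 4 plates, the exception being s169s, where 7 aEC cells had 0 CPM.

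Neither gene of the Eph pair differed 4-fold in CPM + 5 between arteries and veins in these cells. For Efnb2 the scale could not show it, since 12.4 CPM in aEC is too low to reach 4-fold over any vEC level. Ephb4 had 83.2 CPM in aEC (80.0 to 86.4), 85.8 CPM in vEC (81.0 to 90.8), 141 CPM in CP-EC and 106 CPM in capilEC (104 to 107). Its plate values were 38.3, 161, 60.6 and 61.0 CPM in aEC, and 189, 4.76, 78.6 and 68.3 CPM in vEC, so that the within-plate difference ran from -2.16 to 4.08 and the types overlapped. At least 5 thinned reads were found in 21.6% of aEC cells (14.5 to 30.1%), 28.9% of vEC cells (16.4 to 44.3%) and 16.8% of capilEC cells (14.2 to 19.6%), and in 0 of 137 MG cells, which allows a share of up to 2.66%.

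Efnb2, the ligand, was low in every endothelial type: 12.4 CPM in aEC (11.2 to 13.7), 5.03 CPM in vEC (3.93 to 6.34), 39.3 CPM in CP-EC and 20.5 CPM in capilEC (19.8 to 21.1). The aEC plates had 9.24, 11.7, 10.8 and 14.9 CPM and the vEC plates 0.355, 0, 17.6 and 0 CPM, so aEC was higher in 3 of 4 plates. Plate s482s held 70 of the 71 vEC reads. The aEC minus vEC difference in log2(CPM + 5) was 1.84 without that plate, against 0.79 with it. At least 1 thinned read was found in 16.4% of aEC cells (10.2 to 24.4%), 4.44% of vEC cells (0.543 to 15.1%) and 9.91% of capilEC cells (7.91 to 12.2%), against 2.19% of MG cells. A few cells carried the sums. In vEC 63.4% of reads came from 1 cell, in CP-EC 81.5%, and in capilEC 10 of 787 cells held 50% of the reads. FB had the highest level, 88.4 CPM (77.2 to 101), with 72.6% of it in 1 of 9 cells.

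Efna1, a ligand of EphA receptors, was even across arteries, veins and capillaries. It had 369 CPM in aEC (362 to 376), 360 CPM in vEC (350 to 370), 576 CPM in CP-EC and 328 CPM in capilEC (325 to 331). Plate values were 304, 381, 433 and 301 CPM in aEC, 319, 102, 601 and 304 CPM in vEC, and 308, 297, 326 and 369 CPM in capilEC. These ranges overlap, and no pair of the 3 types kept its direction in all 4 plates. At least 5 thinned reads were found in 47.4% of aEC, 53.3% of vEC and 40.8% of capilEC cells, against 5.11% of MG cells.

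**Figure D2:**
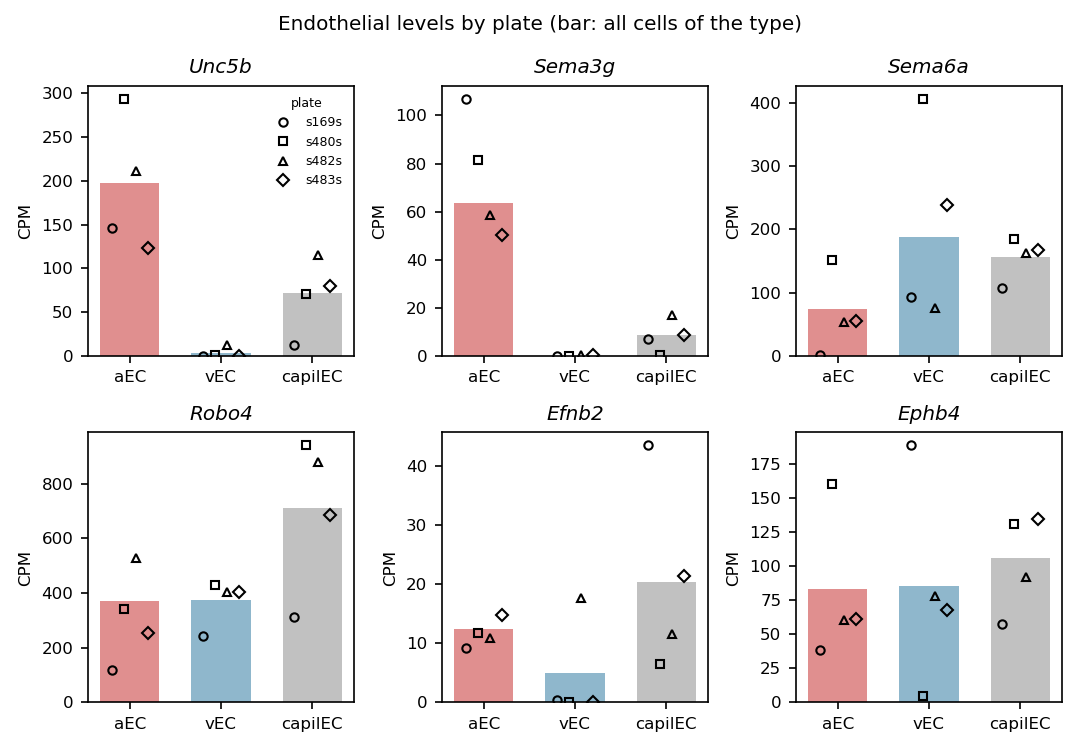
CPM of 6 guidance genes in aEC, vEC and capilEC, with a bar for all cells of a type and 1 open marker for each of the 4 plates. The plates separate aEC from vEC for Unc5b (123 to 294 against 0 to 12.1 CPM) and Sema3g (50.4 to 107 against 0 to 0.252 CPM) and overlap for Ephb4.

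Read against all genes, Unc5b was the member that passed a size rule between arteries and veins. The rule asked for at least 50 CPM and a read in at least 50% of cells in the higher group and at least a 4-fold difference in CPM + 5. It was met by 1 of 10 guidance genes as higher in aEC than vEC, where 0.51% of 11960 measured genes (those over 5 CPM in either group) met it in that direction and 0.452% in the other. The share of aEC cells with an Unc5b read was 54.3% at full depth and 43.1% after thinning, and with thinned shares, a setting chosen after the data were seen, 0 of the 10 met the rule and 37 genes in place of 61 did as higher. Sema3g had a difference of 3.74 but a read in 30.2% of aEC cells, so that 2 of 10 were past the 4-fold alone, against 3.55% of all genes. The median difference of the 9 measured members was 0.79, against 0.27 for 30 measured genes of a wider list and -0.07 for all measured genes. In aEC against capilEC, 0 of the 10 met the rule (0.243% of all genes in either direction), and the median of the 9 measured members was -0.24, against 0.005 for all genes. In vEC against capilEC it was again 0 of 10 (0.508% of all genes), with a median of -0.91, against 0.07 for all genes. These comparisons share their aEC, vEC and capilEC cells.

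The wider list held 80 genes of the ephrin, Eph, semaphorin, plexin, neuropilin, netrin, Unc5, Slit, Robo, RGM and FLRT families, 79 of them in the table, of which 69 are not among the 10. Of these 69, 0 met the rule as higher and 2 as lower in aEC than in vEC. Nrp2, a neuropilin co-receptor for class 3 semaphorins, had 14.6 CPM in aEC and 263 CPM in vEC. By plate it had 0, 0.543, 0.775 and 41.0 CPM in aEC and 309, 406, 191 and 236 CPM in vEC, which do not overlap. Flrt2, a ligand of Unc5 receptors, had 17.2 CPM in aEC and 225 CPM in vEC, with plates of 1.32, 15.2, 20.2 and 17.6 CPM in aEC and 513, 38.6, 122 and 224 CPM in vEC, which do not overlap either. The receptor Unc5b and the ligand Flrt2 were thus at opposite ends of the axis from arteries to veins. Neither Flrt2 nor Nrp2 was particular to veins. Flrt2 was highest in FB (9 cells), at 525 CPM, and Nrp2 had 235 CPM in CP-EC. In plate s480s Flrt2 had 38.6 CPM in vEC and 88.1 CPM in capilEC. Against capilEC, 1 of the 69 met the rule in vEC, Nrp2 again (263 CPM in vEC, 27.4 CPM in capilEC), and 0 did in aEC.

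The capilEC cells could be spread along the same axis without a new label. Within each plate they were ranked by a score, the mean log2(CPM + 5) of 10 arterial genes minus that of 9 venous genes, none of them a guidance gene, and cut into 4 equal parts of 195 to 198 cells. These parts are ranges of a score and not cell types, and their median depths were 211306, 175918.5, 189644 and 198852 reads from the most venous to the most arterial. Along them Unc5b had 16.9, 57.1, 74.5 and 143 CPM, Efnb2 had 3.53, 15.4, 19.4 and 44.7 CPM, and Sema3g had 0.336, 6.69, 9.63 and 18.02 CPM. The sums were higher in each part than in the one before, but for Sema3g 1 cell held 91.1% of the reads of part 2, 41.6% of part 3 and 36.0% of part 4. The most arterial minus the most venous part gave log2(CPM + 5) differences of 2.76 for Unc5b and 2.54 for Efnb2, each positive in 4 of 4 plates, and of 2.11 for Sema3g, positive in 3 of 4. Of the Efnb2 reads 46.4% came from a single cell in the most venous part and 38.5% in the next. Between aEC and vEC the Efnb2 difference was 0.79. Of the wider-list genes that met the rule as lower in aEC than in vEC, Flrt2 had 193, 58.7, 11.2 and 12.7 CPM along the same parts. Nrp2 had 55.5, 25.1, 23.8 and 2.08 CPM along them.

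Sema6a descended along the same parts, with 215, 177, 130 and 99.8 CPM (difference -1.07, negative in 4 of 4 plates). Sema7a had 131, 136, 106 and 80.6 CPM (-0.67, negative in 4 of 4) although its aEC level was above its vEC level. Ephb4 had 131, 107, 87.3 and 95.1 CPM (-0.44, negative in 3 of 4). Robo4 with 626, 741, 808 and 680 CPM and Plxnd1 with 78.5, 180, 166 and 125 CPM were highest in the middle parts, and Efna1 had 309, 291, 366 and 346 CPM. Plxdc2 stayed near 2 CPM, with a difference of -0.06.

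**Figure D3:**
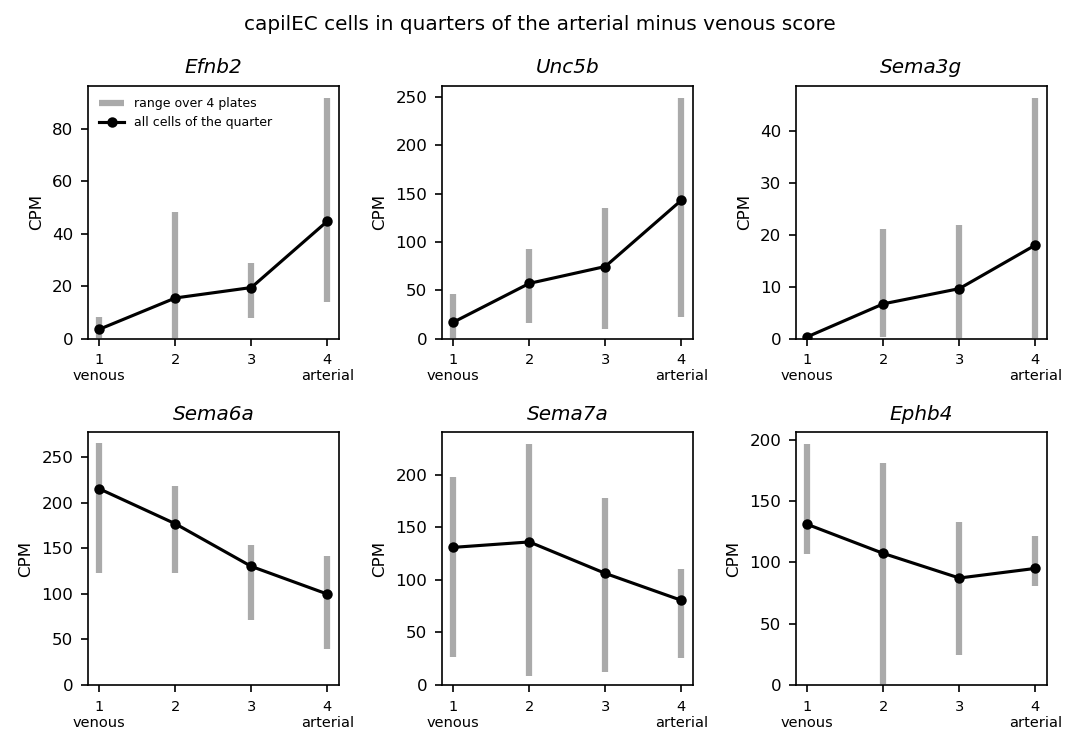
CPM of 6 guidance genes in 4 equal parts of the capilEC cells ranked within plates by arterial minus venous score, from the most venous (1) to the most arterial (4); points are sums over all cells of a part and grey bars run from the lowest to the highest of 4 plates. Efnb2, Unc5b and Sema3g climb to 44.7, 143 and 18.02 CPM in part 4, and Sema6a descends to 99.8 CPM.

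The sums of Efnb2, Unc5b and Sema3g each rose along the capillary score, and the promoters of these genes are shown. They run from 250 to 14 bases before the RefSeq start on GRCm38.p6, written 5′ to 3′ on the gene's strand. Capitals mark matches on either strand to the GC box GGGCGG, the ETS core CCGGAA or the RBPJ core GTGGGAA, motifs of factors known from promoters in general, from endothelium and from Notch signalling. The windows are chr8:8661256-8661492 on the minus strand for Efnb2, chr10:60831595-60831831 on the minus strand for Unc5b and chr14:31217623-31217859 on the plus strand for Sema3g.
Efnb2: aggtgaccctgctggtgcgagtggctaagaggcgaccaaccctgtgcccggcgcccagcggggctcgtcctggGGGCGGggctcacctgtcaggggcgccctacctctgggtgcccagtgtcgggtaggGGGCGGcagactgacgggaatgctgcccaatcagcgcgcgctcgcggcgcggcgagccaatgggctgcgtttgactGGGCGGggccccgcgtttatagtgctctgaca
Unc5b: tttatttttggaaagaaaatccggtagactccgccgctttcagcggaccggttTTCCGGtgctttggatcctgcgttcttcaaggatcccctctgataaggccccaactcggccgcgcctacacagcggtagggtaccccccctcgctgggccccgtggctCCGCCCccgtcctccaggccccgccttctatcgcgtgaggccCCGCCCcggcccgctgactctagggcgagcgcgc
Sema3g: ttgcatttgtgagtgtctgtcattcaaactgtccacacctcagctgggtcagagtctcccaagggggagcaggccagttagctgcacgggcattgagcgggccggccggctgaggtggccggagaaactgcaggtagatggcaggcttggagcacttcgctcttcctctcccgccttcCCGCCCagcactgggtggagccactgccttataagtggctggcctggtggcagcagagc
Efnb2 held 3 GC boxes, 177, 121 and 45 bases before the start, Unc5b held 2, at 89 and 47 bases, and Sema3g held 1, at 72 bases. Unc5b also held 1 ETS core, 197 bases before the start. None of the 3 windows held the RBPJ core. Among the other members with a window, Ephb4 held 3 GC boxes, Sema7a 2 and Plxnd1 1, the 2 windows of Efna1 held 1 and 2, and Robo4 held 0. GC boxes were thus not particular to the genes shown. Of 32851 mouse promoter windows of the same length, 30.9% held a GC box, 10.9% an ETS core and 5.09% an RBPJ core. GC content was 70.5% in Efnb2, 65.4% in Unc5b and 61.6% in Sema3g, against a median of 51.9% in all windows. It was 62.9% to 65.8% in the windows of Ephb4, Efna1, Sema7a and Plxnd1, and 48.9% in that of Robo4. Of the 10 genes, 8 matched the RefSeq table by symbol, and Sema6a and Plxdc2 are named only.

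Between vessel wall layers, Efna1, Robo4, Sema6a and Sema7a were higher in the endothelial mean and Plxdc2 was higher in the mural mean. In the mean of aEC, vEC and capilEC against the mean of aSMC, vSMC and PC, 4 of 10 members met the size rule as higher (1.79% of 12714 genes did) and 1 as lower (1.12% of genes). Sema7a had 126 CPM in the endothelial mean and 2.98 CPM in the mural mean (difference 4.04), Robo4 had 485 and 31.6 CPM (3.74), Sema6a had 140 and 8.64 CPM (3.41) and Efna1 had 352 and 61.8 CPM (2.42). Each was higher in 4 of 4 plates. Without plate s483s Sema6a (3.23) and Sema7a (3.81) no longer met the share of cells in the rule, and without plate s480s Sema7a did not. At full depth 51.1% of endothelial cells had a Sema6a read and 50.9% a Sema7a read, as means over the 3 types, and 57.7% of mural cells had a Plxdc2 read. After thinning these shares were 42.8%, 44.5% and 48.4%, so that 2 of the 5 members, Efna1 and Robo4, met the rule at equal depth. Of the 69 other guidance genes 1 met the rule, Sema3c, a secreted class 3 semaphorin, with 562 CPM in the endothelial mean and 77.6 CPM in the mural mean. The members' median difference was 1.03, against -0.64 for 33 measured genes of the wider list and 0.03 for all genes.

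Plxdc2, a membrane protein with a plexin-like domain that has been described as a receptor for pigment epithelium-derived factor, had 1.61 CPM in the endothelial mean and 334 CPM in the mural mean (difference -5.68, -6.37 to -4.95 within plates). Its level was 673 CPM in PC (658 to 689), 320 CPM in vSMC (307 to 335) and 9.55 CPM in aSMC (7.85 to 11.5), and outside the mural cells 240 CPM in FB and 673 CPM in MG (664 to 682). At least 5 thinned reads were found in 63.0% of PC cells (48.7 to 75.7%), 31.0% of vSMC cells, 2.44% of aSMC cells, 44.4% of FB cells and 57.7% of MG cells (48.9 to 66.1%), against 0.381% of capilEC cells. PC plates had 605, 696, 448 and 1383 CPM. Beside it, the 7 microglial marker genes summed to 451 CPM in PC and 25966 CPM in MG, and 0 of the 7 were at 0 in PC. Their part in the Plxdc2 level of PC was not tested.

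In aSMC against vSMC, 1 of 10 members met the rule as lower (1.08% of 11623 genes) and 0 as higher (0.869%). Plxdc2 had 0.626, 24.4, 3.58 and 1.08 CPM in the aSMC plates and 54.3, 704, 515 and 3.71 CPM in the vSMC plates, lower in aSMC in 4 of 4 (difference -4.48, -5.92 to -0.52 within plates). By fold alone 3 of 10 members were lower in aSMC (9.86% of all genes), Plxdc2 with Unc5b and Sema3g. The Plxdc2 plates overlapped, since plate s483s had 3.71 CPM in its 8 vSMC cells. Without cells that held markers of another class, fewer than 50% of vSMC cells had a Plxdc2 read and Efna1 met the rule in its place, higher in aSMC by 2.40. Of the 69 other genes of the wider list 1 met the rule as lower in aSMC (1.08% of all genes). It was Nrp1, a neuropilin, with 43.9 CPM in aSMC and 237.2 CPM in vSMC, where 3 cells held 50% of its reads. Nrp1 also had 361 CPM in capilEC, and its vSMC level was not recomputed without the cells that held endothelial transcripts.

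Guidance genes of the endothelium also had reads in mural cells, beside other endothelial transcripts. Unc5b had 115 CPM in vSMC and 42.5 CPM in PC, Plxnd1 121 CPM in PC and 67.0 CPM in vSMC, Ephb4 58.6 CPM in PC, and Sema3g 28.1 CPM in vSMC. Single genes of the endothelial list lay at 9.61% to 58.5% of their endothelial mean in vSMC (median 20.2%) and at 5.59% to 64.9% in PC (median 18.8%). In vSMC Unc5b (126%), Sema3g (117%), Efnb2 (84.4%) and Plxnd1 (65.7%) were above that range, and Sema6a (7.83%), Sema7a (4.04%) and Robo4 (1.77%) were below it. In PC Plxnd1 (118%) was above it, Ephb4 (63.9%), Unc5b (46.8%), Efnb2 (35.6%), Efna1 (16.4%), Sema6a (10.005%) and Robo4 (9.83%) were inside it, and Sema7a (1.56%) and Sema3g (1.55%) were below it. The cell with the most reads held 74.5% of the Unc5b, 39.4% of the Ephb4 and 26.5% of the Plxnd1 reads of PC. In vSMC it held 88.1% of the Sema3g, 50.2% of the Plxnd1 and 35.6% of the Unc5b reads.

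When mural cells whose endothelial list exceeded 10% of that of the median endothelial cell were left out, a step chosen after the data were seen, 33 of 41 aSMC, 16 of 29 vSMC and 21 of 54 PC cells stayed. Unc5b was then 2.95 CPM in vSMC, against 115 CPM in all vSMC cells, and 0.739 CPM in PC, against 42.5 CPM in all PC cells. Plxnd1 was 15.0 CPM in PC, against 121 CPM in all PC cells, and 7.37 CPM in vSMC, against 67.0 CPM in all vSMC cells. Ephb4 was 0.985 CPM in PC, against 58.6 CPM, and Sema3g was 1.11 CPM in vSMC, against 28.1 CPM. Some levels stayed or were higher. Efnb2 was 17.3 CPM in vSMC, against 10.6 CPM in all vSMC cells, and Sema6a was 18.1 CPM, against 11.0 CPM. These rest on few cells: of the reads in all vSMC cells, 1 cell held 70.1% for Efnb2 and 65.2% for Sema6a. Plate s483s held 66 of the 67 Efnb2 reads, and plate s482s held 46 of the 69 Sema6a reads. Ephb4 in aSMC kept 47.9 CPM, against 45.5 CPM in all cells, but 66.9% of its reads in all aSMC cells came from 1 cell. Plxdc2 kept its level, with 771 CPM in PC, against 673 CPM, and 280 CPM in vSMC, against 320 CPM, while aSMC had 1.53 CPM, against 9.55 CPM. The endothelial minus mural difference was then 3.90 for Unc5b, against 0.74 with all cells, and 2.24 for Plxnd1, against 0.41, and neither met the size rule.

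**Figure D4:**
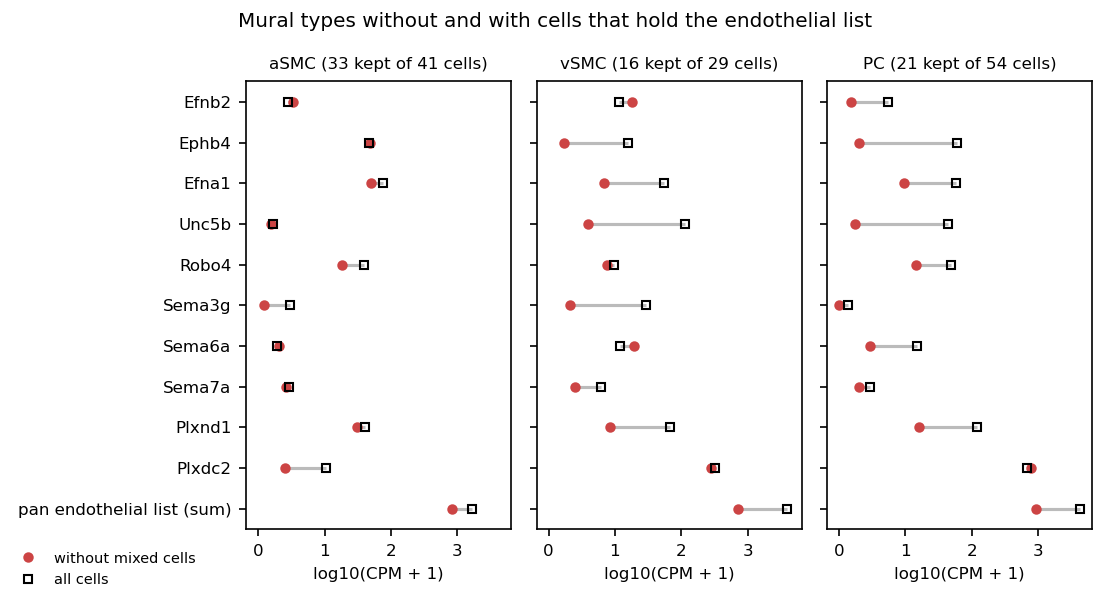
Levels of the 10 guidance genes and of the summed endothelial marker list in aSMC, vSMC and PC, as log10(CPM + 1), in the cells kept after leaving out those with over 10% of the endothelial list (red points) and in all cells (open squares). Unc5b in vSMC lies at 2.95 CPM without these cells and at 115 CPM with them, while Plxdc2 in PC lies at 771 and 673 CPM.

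In CP-EC, the cells with fenestration genes, 0 of 10 members met the rule against capilEC (2.21% of 11565 genes in either direction). Unc5b had 2.12 CPM in CP-EC (0.850 to 4.36) and 71.8 CPM in capilEC, a difference of -3.43. It was 1 of 10 members at least 4-fold lower (18.3% of all genes), and Sema3g was 1 of 10 at least 4-fold higher (5.14%). Of Unc5b, 0 of 17 CP-EC cells had 5 thinned reads, which allows a share of up to 19.5%. Efna1 had 576 CPM in CP-EC and 328 CPM in capilEC (0.80), with at least 5 thinned reads in 47.1% of CP-EC and 40.8% of capilEC cells. Of its CP-EC reads 24.0% came from 1 cell. The Efna1 difference was 0.28 within plate s483s and 0.48 without plate s480s. Only 1 plate held 5 or more CP-EC cells, and the Efnb2 difference was -2.13 without plate s483s, against 0.80 with it. Counts from 17 cells limit the rest.

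Known partners of the 10 were unevenly spread over the types. The netrin Ntn1, ligand of Unc5b, had 47.2 CPM in aEC, 4.53 CPM in vEC and 4.34 CPM in capilEC, and 77.1 CPM in PC. In aEC, plate s480s had 127 CPM and plate s169s had 0 CPM. Ntn4 had 53.7 CPM in aSMC and at most 1.57 CPM in the endothelial types. Among Slits, Slit2 had 43.0 CPM in PC, with plates of 0, 196, 1.92 and 0.583 CPM, so that plate s480s (10 cells) carried it. In vEC Slit2 had 13.4 CPM, of which 1 cell held 52.9%. Slit3 had 45.8 CPM in aSMC, with 53.7% of it in 1 cell, and both Slits were at or under 1.87 CPM in capilEC.

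The plexins that receive Sema6a were split: Plxna2 had 55.4 CPM in aEC, 10.8 CPM in vEC, 320 CPM in CP-EC and 82.4 CPM in capilEC, and Plxna4 had 0.256 CPM in aEC, 38.8 CPM in vEC and 7.85 CPM in capilEC. Of the Sema7a receptors, Plxnc1 had at most 5.81 CPM in the endothelial types, and the integrin subunit Itgb1 had 449 CPM in aEC, 396 CPM in vEC and 444 CPM in capilEC and 1360 CPM in aSMC. Sema3e, the ligand of Plxnd1, had at most 3.40 CPM, in vEC. Nrp1 was highest in CP-EC at 1289 CPM, against 361 CPM in capilEC. Of the EphA receptors of Efna1, Epha4 had 40.1 CPM in aEC, 70.1 CPM in vEC and 69.9 CPM in capilEC, and Epha2 was highest in vSMC at 95.8 CPM.

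Few cells held both genes of the Eph pair, each of which was found in a minority of cells. That alone does not show that they avoid each other. Pearson r of log2 thinned counts for Efnb2 with Ephb4 was -0.02 in aEC, -0.15 in vEC and -0.03 in capilEC. For neither pair below were the counts of both set against the number expected from each gene alone. Efnb2 and Ephb4 were both found, with at least 1 thinned read, in 6 of 116 aEC cells (5.17%), 0 of 45 vEC cells and 22 of 787 capilEC cells (2.80%). Efnb2 without Ephb4 was found in 13 aEC, 2 vEC and 56 capilEC cells, and Ephb4 without Efnb2 in 33, 19 and 193. Unc5b and Robo4 were both found in 39 of 116 aEC cells (33.6%), 2 of 45 vEC cells (4.44%) and 147 of 787 capilEC cells (18.7%). Unc5b without Robo4 was found in 11 aEC, 2 vEC and 25 capilEC cells, and neither gene was found in 133 capilEC cells. Over all 45 pairs of the 10 genes, Pearson r of log2 thinned counts across the 787 capilEC cells, which share plates, lay between -0.09 and 0.19, too weak in counts this sparse to count as a relation.

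The plates differed for several members within capilEC. Plate s169s (223 cells) had 12.4 CPM of Unc5b, against 88.8 CPM in the other plates together, 18.7 CPM of Sema7a, against 141 CPM, and 46.4 CPM of Plxnd1, against 161 CPM. Efnb2 ran the other way with 43.6 CPM in s169s, against 13.8 CPM in the others, while Efna1 had 308 and 334 CPM. Of 11503 genes measured in capilEC, 3.02% were at least 4-fold lower on s169s, and the median difference of all was -0.004. The labels do not say how the plates differed beyond their names. Differences given within plates compare types on the same plate.

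Over the 9 types, the gene most like each member in Pearson r of log2(CPM + 5), among 8337 genes with at least 50 CPM in 1 type, was Grrp1 for Robo4 (r = 0.99), Aldh2 for Plxnd1 (0.99), Ushbp1 for Efna1 (0.98), Gja1 for Efnb2 (0.97), Abca9 for Plxdc2 (0.97), Ly6a for Sema6a (0.97), Rnf31 for Unc5b (0.97), Shroom1 for Sema7a (0.96), Ifi35 for Ephb4 (0.95) and Med19 for Sema3g (0.91). The next were Tnfsf10 and Rab11fip1 for Robo4, Bok and Gstm1 for Plxnd1, Arhgef15 and Tie1 for Efna1, Cdc42bpa and Tax1bp3 for Efnb2, and Tlr12 and Ifi30 for Plxdc2. They were Gng5 and Fnbp1l for Sema6a, Rhpn2 and Vangl2 for Unc5b, Atox1 and Shroom4 for Sema7a, Ahnak and Stard4 for Ephb4, and Macf1 and Mre11a for Sema3g. With 9 points that share plates, and the highest r picked from so many genes, these values describe the profiles only.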

How the data were processed

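Deposited files were the authors' raw counts of reads per gene and cell, with a deposited label of type for each cell. The tools Subread 1.4.6-p5, with featureCounts, and SAMtools 1.16.1 are named per the submitters' processing notes, as are GRCm38 and GRCm39, without a role. The aligner and how labels were assigned are not given in the sources used here. Depth was 100021 to 854836 reads per cell, 285520064 in all, and reads per type ran from 2556671 in FB to 172998640 in capilEC. All 1235 cells were kept, 0 count columns were left out, and no doublet caller was run.

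Reads were summed per type to CPM, and differences are on log2(CPM + 5), which understates the change of low genes. The size rule used shares on all reads, so it depends on depth, and other shares used cells thinned to 100000 reads. No test was run, with 1 sample per type. Values by plate needed at least 5 cells, apart from those of Robo4 in CP-EC. The size rule was tested on simulated data. The members, the lists and the rules were chosen with earlier results of these data known. The text names the 10 genes, guidance genes that met the size rule, known partners, and the 3 most alike genes by r. Exon lengths come from GENCODE M21 on GRCm38. edgeR 4.0.16 and DESeq2 1.42.0 gave alternative scaling factors only. The count of at least 5 thinned reads and the removal of mural cells with endothelial transcripts were chosen after the data were examined.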

Additional observations from a re-analysis of the deposited data

How the results depend on the processing

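No paired analysis was possible because each type was deposited as 1 sample, the labels carry no replicate numbers and no animals are named; types were set side by side within plates, with no test. The count of members past the size rule changed under some of the alternatives. With no minimum share of cells it was 2 in aEC against vEC (1 as reported), 1 in aEC against capilEC (0), 1 in vEC against capilEC (0), 2 in CP-EC against capilEC (0) and 2 in aSMC against vSMC (1). For aSMC against vSMC it was also 2 with equal weight for every cell (Robo4 with Plxdc2), without plate s169s (Unc5b), without plate s483s and without the top cell of each gene and type (Efna1 in both). With the share of cells taken on thinned reads, an alternative chosen after the data were seen, it was 0 in aEC against vEC and 2 in the endothelial against the mural mean. Without plate s483s it was 1 in CP-EC against capilEC (Sema6a) and 3 in the endothelial against the mural mean (5 as reported). The cause was not tested. Of 750 member differences recomputed under settings that can move them, 337 stayed within the counting interval, 413 moved beyond it, and 0 that met the size rule turned sign. Unc5b in aEC against vEC was 3.20 with a pseudocount of 20 CPM and 5.40 with 1 CPM. Over all genes, the number past the rule differed by over 1.5 times with no minimum share of cells, where 183 genes were higher and 148 lower in aEC than vEC (61 and 54 as reported), 65 and 23 in aEC than capilEC (17 and 11), 95 and 81 in vEC than capilEC (35 and 25), 421 and 756 in CP-EC than capilEC (67 and 189), 351 and 494 in the endothelial than the mural mean (227 and 143) and 475 and 580 in aSMC than vSMC (101 and 126). Genes higher in aSMC than vSMC were 261 without cells holding markers of another class, 252 without mural cells holding the endothelial list, 193 without the top cell and 155 without plate s483s, and genes higher in the endothelial mean were 345 and 344 under the first and second of these. Genes lower in CP-EC than capilEC were 397 without the top cell and 372 without plate s483s, where 124 were higher. In vEC 47 were lower than in capilEC without the top cell and 12 with a pseudocount of 20 CPM, which left 11 higher in aEC than capilEC and 69 lower in aSMC than vSMC. Without plate s480s 199 were lower in aSMC than vSMC. With thinned shares 37 genes were higher in aEC than vEC, 16 lower in vEC than capilEC, 118 lower in CP-EC than capilEC and 78 lower in aSMC than vSMC. Scaling moved the median of all genes by up to 0.26 (DESeq2 size factors, CP-EC against capilEC) and by 0.17 and -0.17 with TMM factors in aEC and vEC against their comparators vEC and capilEC. With TMM factors 82 genes were higher and 47 lower in aEC than vEC, and 28 and 36 in vEC than capilEC (35 and 25 as reported). With DESeq2 size factors 100 and 158 were higher and lower in CP-EC than capilEC (67 and 189). For Efnb2 and Sema3g, 1 to 10 cells carried 50% of the reads in each type that had any, and the number of such cells limits the precision.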
